A study of Mus musculus with 88 samples.

Results

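The Zfp36 family comprises RNA-binding proteins with paired CCCH zinc fingers, and 3 of its genes, Zfp36, Zfp36l1 and Zfp36l2, were found among the 10518 genes measured here by matching the platform's probe annotation to current gene symbols through Entrez identifiers. Zfp36 encodes tristetraprolin (TTP), which binds AU-rich elements of cytokine mRNAs such as Tnf and recruits the CCR4-NOT deadenylase, so that the bound mRNA loses its poly(A) tail and is degraded. In macrophages Zfp36 is an early response gene of Toll-like receptor signalling, and its protein is held in an inactive, stable form by the p38 MAP kinase and its effector kinase MK2 and is reactivated by phosphatase action. Zfp36l1 and Zfp36l2 encode related decay factors with the same kind of RNA-binding domain, known from development and lymphocyte biology.

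RAW 264.7 cells, a mouse macrophage-like line, were treated for 1, 2 or 4 h and their RNA was hybridised on 2-colour custom Agilent oligonucleotide arrays against RNA from time-matched cells in medium. The treatments were 100 ng/ml lipopolysaccharide (LPS, a Toll-like receptor ligand) with 100 pM lipid binding protein, 50 nM isoproterenol (ISO, a beta-adrenergic agonist), 10 µM prostaglandin E2 (PGE2), LPS with ISO, and LPS with PGE2. The labels name lipid binding protein for LPS alone and not for the combinations. The 88 arrays form 44 dye-swap pairs, called sets, in 15 groups of 3 sets each, except PGE2 at 1 h with 2 sets. The labels give no genotype or separate cultures for the sets, so p-values measure the spread between these sets, which may be technical. RAW 264.7 is 1 cell line. Of 10 macrophage markers 9 were on the array, and these were measured on a median of 88 arrays, although Lyz2 had values on 6. Of 12 markers of other cell types 11 were on the array, with a median of 48 arrays, although Col1a1 had values on 86 and Cdh5 on 82. Ratios hold no absolute level, so these counts do not establish cell identity. A value is the log2 ratio of treated over medium RNA, where 1 means 2-fold more in treated cells, and its direction is likely rather than stated: 20 of 20 known LPS-induced genes were measured, with a median between 1.30 and 3.16 on the 18 LPS-only arrays. Across probes, the 2 arrays of a set had r of 0.20 to 0.85 in the 27 sets with LPS. In the 17 sets of ISO or PGE2 alone r was −0.58 to 0.32, below 0 in 10, so over all probes the dye orientations did not agree in those 10 sets, and the members' own arrays are compared below. The 2 arrays of a set were averaged.

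Zfp36 lies on chromosome 7 at 28376784 to 28379228, Zfp36l1 on chromosome 12 at 80107760 to 80113013 and Zfp36l2 on chromosome 17 at 84183924 to 84187947 (assembly GRCm38.p6), and all 3 are protein coding. Zfp36 was read by probe 15710 and Zfp36l1 by probe 12276, both with values on 88 of 88 arrays. A second Zfp36l1 probe, 14350, was listed at 0 on all 88 arrays and was left out. Zfp36l2 was read by probe 14593, which was listed at 0 on 19 arrays and had values on 69. The sources used here do not explain these zeros, which draw a mean toward 0.

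The 250 bases upstream of the start site of the 2 members that rose with LPS are shown, since these genes shared the stimulus but not the time course described below. They come from RefSeq (GRCm38.p6), both on the minus strand, at chr7:28379229-28379478 for Zfp36 and chr12:80113014-80113263 for Zfp36l1, and the capitals mark motif matches. Zfp36l2 is not among the entries of the promoter table used.
Zfp36: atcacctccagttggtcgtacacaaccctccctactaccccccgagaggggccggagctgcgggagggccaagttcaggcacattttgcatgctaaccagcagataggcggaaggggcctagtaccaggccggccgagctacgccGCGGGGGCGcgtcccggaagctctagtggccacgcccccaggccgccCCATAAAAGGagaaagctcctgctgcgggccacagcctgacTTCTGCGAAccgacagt
Zfp36l1: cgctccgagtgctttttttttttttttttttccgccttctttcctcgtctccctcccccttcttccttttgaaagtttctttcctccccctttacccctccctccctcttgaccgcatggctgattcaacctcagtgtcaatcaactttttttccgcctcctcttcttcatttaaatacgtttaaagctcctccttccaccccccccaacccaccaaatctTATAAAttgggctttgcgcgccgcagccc
The capitals in Zfp36 mark, in 5′ to 3′ order, an EGR site (GCGGGGGCG) 105 bases upstream of the start, a CArG box 58 bases upstream, and a STAT site (TTCNNNGAA) 17 bases upstream. In Zfp36l1 they mark a TATA box (TATAAA) 29 bases upstream. Both strands were searched. Over all 32851 such windows the EGR site occurred in 2.57%, the CArG box in 1.47%, the STAT site in 7.02% and the TATA box in 12.4%. The CRE (TGACGTCA, 1.55% of windows), its core (TGACG, 17.8%, which lies within the full CRE), the AP-1 site (TGACTCA, 4.46%), the NF-kB site (7.25%) and the C/EBP core (TTGCGCAA, 0.164%) did not occur in either window. The GC content was 64.8% for Zfp36 and 48.4% for Zfp36l1.

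Zfp36 rose with LPS at every time, with a dip at 2 h. Its log2 ratios in the 3 sets were 3.97, 3.22 and 3.28 at 1 h, 1.40, 1.94 and 1.65 at 2 h, and 2.83, 3.07 and 3.52 at 4 h. All 9 sets were well above 0, and none of the 2 h sets reached the values of the 1 h or 4 h sets. The mean was 3.49 ± 0.42 (SD, n = 3) at 1 h, 11.2-fold higher than medium (limma, Benjamini-Hochberg adjusted p = 3.05e-16), and ranked 8 of 10518 genes. At 2 h it was 1.67 ± 0.27 (SD, n = 3), 3.17-fold (limma, adjusted p = 5.61e-09), and at 4 h 3.14 ± 0.35 (SD, n = 3), 8.82-fold (limma, adjusted p = 3.87e-16). Of all genes tested, 4.64% rose and 4.84% fell at 1 h, 8.88% rose and 7.01% fell at 2 h, and 14.3% rose and 16.4% fell at 4 h with LPS. The 2 h response was 1.82 below the 1 h response on the log2 scale (95% interval −2.31 to −1.33), and the response differed between the times (limma F test, adjusted p = 8.71e-07, against 18.5% of all genes). The tests share 1 estimate of the spread over all groups. Fitted to their own sets alone, with the same means, the adjusted limma p at 1 h was 0.276 for Zfp36 and 0.468 for Zfp36l1 with LPS and 0.633 for Zfp36 with ISO, and at 2 h 0.0568 for Zfp36 with LPS.

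Zfp36l1 also rose with LPS, but was highest at 2 h. The sets gave 1.44, 0.18 and 1.04 at 1 h, 1.64, 1.64 and 1.97 at 2 h, and 1.11, 1.22 and 1.07 at 4 h. Set 2 at 1 h was low, and the 2 h sets lay above the 4 h sets without overlap. The means were 0.88 ± 0.64 (SD, n = 3), 1.85-fold, at 1 h (limma, adjusted p = 9.29e-05), 1.75 ± 0.19 (SD, n = 3), 3.37-fold, at 2 h (limma, adjusted p = 1.59e-10), and 1.13 ± 0.082 (SD, n = 3), 2.19-fold, at 4 h (limma, adjusted p = 1.85e-07). The times differed (limma F test, adjusted p = 0.0074), though without set 3 at 2 h the adjusted p was 0.0612. The low set 2 at 1 h also stood low in both combinations, at 0.23 with ISO and 0.31 with PGE2, where the other sets lay between 0.88 and 1.12.

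Zfp36l2 moved the other way at 4 h, with a wide spread. With LPS its sets were 0, 0.20 and −0.04 at 1 h, −0.04, −0.01 and −0.41 at 2 h, and −0.12, −1.83 and −0.72 at 4 h. Set 2 at 4 h is far from the others. The 4 h mean, −0.89 ± 0.87 (SD, n = 3), 1.85-fold lower, passed the test (limma, adjusted p = 0.00783), but not without set 2, where the log2 mean was −0.42 (limma, adjusted p = 0.361). The 2 arrays of set 2 read −2.44 with treated RNA in Cy3 and −1.21 in Cy5, and the Cy5 arrays alone gave −0.46 over the 3 sets (limma, adjusted p = 0.16). The Cy5 array of set 1 was listed at 0. The Cy3 arrays read −0.24, −2.44 and −1.27, and alone they kept the call. Neither orientation alone is free of the dye difference of this probe, which is described below. In bulk RNA of 1 cell line, a fall in every cell and a larger fall in some cells cannot be told apart. The difference between times did not pass (limma F test, adjusted p = 0.151), but did with the set number within each time as a replicate block (adjusted p = 0.014) and without set 1 at 4 h (0.0347).

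**Figure D1:**
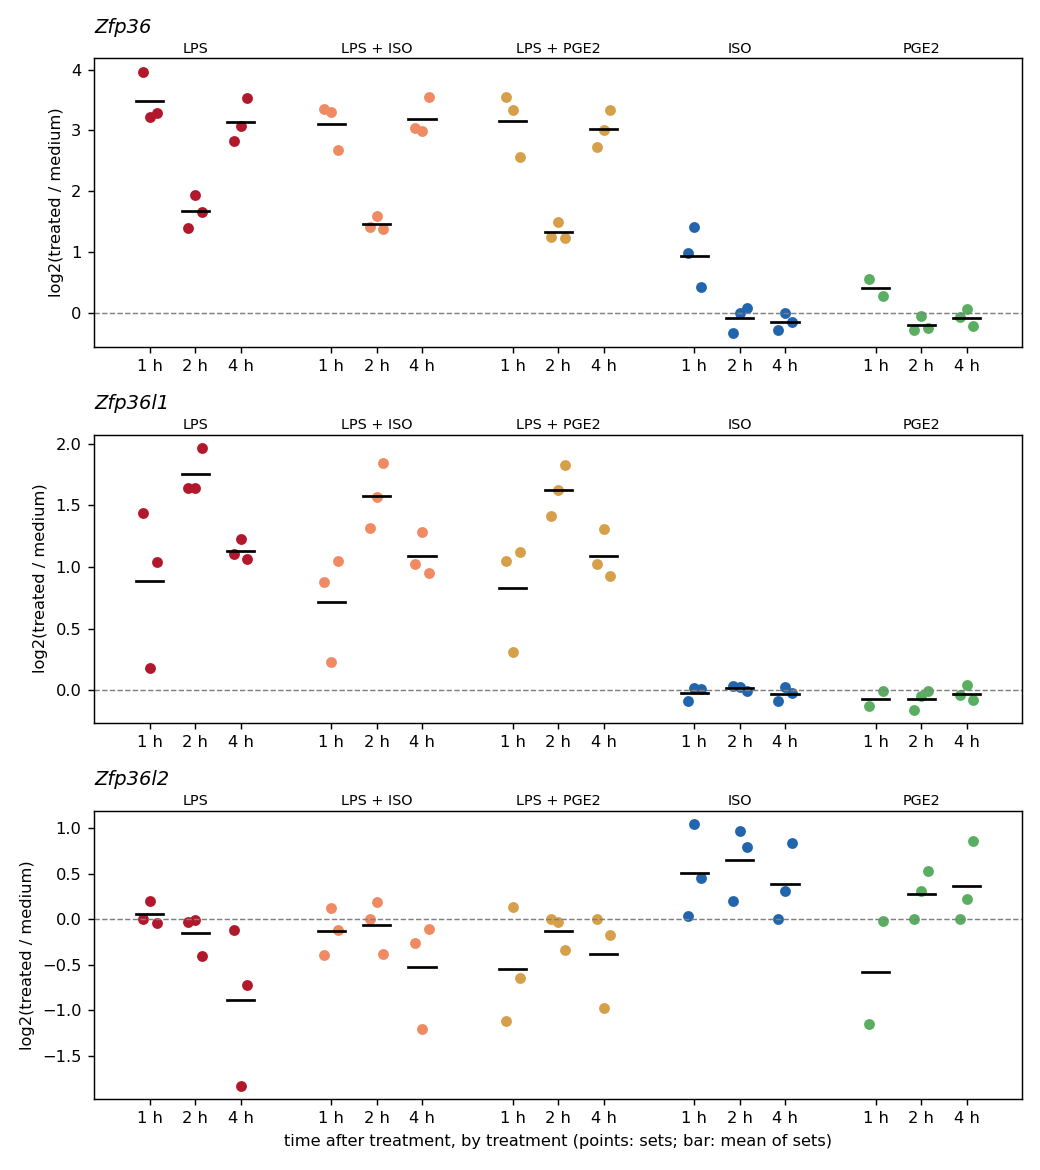
Log2 ratio of treated over medium (y axis) for each set, by treatment and time (x axis), for each member; points are sets and bars are group means. Zfp36 sits between 1.24 and 1.94 at 2 h in the 9 sets with LPS and between 2.56 and 3.97 at 1 h and 4 h, while the Zfp36l1 group means in LPS are highest at 2 h.

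The probes differed in how well the 2 dye orientations agreed. For Zfp36 the median Cy5 minus Cy3 difference was −0.10 over 44 sets, with the Cy5 value higher in 13. For Zfp36l1 it was 0.12, with the Cy5 value higher in 38 of 44, so this probe also differed by dye, by less. For Zfp36l2 it was 0.39 over the 32 sets with values on both arrays, and the Cy5 value was higher in 31 of them. In 7 sets both Zfp36l2 arrays were at 0 and in 5 sets 1 of them was. A dye effect of that kind cancels in the mean of a set with both values, but not in the 5 sets with 1 zero.

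**Figure D2:**
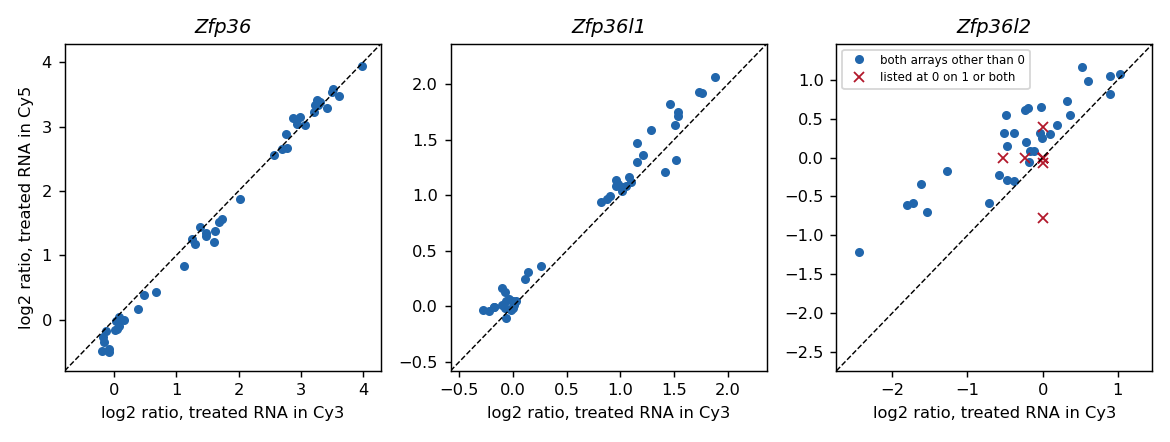
Log2 ratio with treated RNA in Cy5 (y axis) against Cy3 (x axis), 1 point per set, with the line of equality; crosses are sets with a listed 0. Zfp36 and Zfp36l1 lie near the line, with 13 and 38 of 44 points above it. Of the Zfp36l2 points without a 0, 31 of 32 lie above it.

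ISO alone raised Zfp36 at 1 h and left the family without other passing changes. Zfp36 read 0.98, 1.40 and 0.43 at 1 h, −0.34, −0.01 and 0.08 at 2 h, and −0.29, 0.00 and −0.16 at 4 h. All 1 h sets were above the 2 h and 4 h sets. The 1 h mean was 0.94 ± 0.49 (SD, n = 3), 1.92-fold (limma, adjusted p = 0.00188), and 0.70 without set 2 (limma, adjusted p = 0.141). Over all genes 0.713% rose and 0.19% fell at 1 h, 0.884% and 0.827% at 2 h, and 1.87% and 1.48% at 4 h with ISO. The times differed for Zfp36 (limma F test, adjusted p = 0.0258, against 0.589% of all genes); the call was lost without set 1 or 2 at 1 h, set 1 at 2 h, or set 1 or 3 at 4 h, where the adjusted p reached 0.249. Zfp36l1 lay between −0.09 and 0.04 in all 9 ISO sets. Zfp36l2 was at or above 0 in all 9, with 0.03, 1.05 and 0.45 at 1 h, 0.20, 0.97 and 0.80 at 2 h, and 0, 0.31 and 0.84 at 4 h, and no time passed (limma, adjusted p = 0.533, 0.299 and 0.522). At 2 h, where the mean was 0.65 ± 0.41 (SD, n = 3), it passed with the set number within each time as a replicate block (limma, adjusted p = 0.0347).

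PGE2 alone changed no member past the threshold. Zfp36 read 0.55 and 0.28 in the 2 sets at 1 h (mean 0.41, limma, adjusted p = 0.542), and between −0.28 and 0.06 at 2 and 4 h. Zfp36l1 lay between −0.16 and 0.04 in all 8 sets. Zfp36l2 read −1.15 and −0.02 at 1 h, then 0, 0.31 and 0.53 at 2 h, and 0, 0.22 and 0.86 at 4 h. Over all genes 0.2% rose and 0.124% fell at 1 h, 0.238% and 0.219% at 2 h, and 0.542% and 0.599% at 4 h, and 0.00951% differed between times. The ISO dose (50 nM) and the PGE2 dose (10 µM) differ, so their member values stand side by side without an order. No gene passed the test between ISO and PGE2 over the 3 times (limma F test, 0% of genes; 258 genes at an unadjusted p below 0.05).

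With LPS and ISO together, Zfp36 gave 3.35, 3.30 and 2.68 at 1 h, 1.41, 1.60 and 1.38 at 2 h, and 3.04, 2.99 and 3.55 at 4 h. With LPS and PGE2 it gave 3.55, 3.34 and 2.56 at 1 h, 1.25, 1.49 and 1.24 at 2 h, and 2.73, 3.01 and 3.34 at 4 h. The dip at 2 h was present in both combinations, and every group mean passed against medium (limma, adjusted p from 2.87e-16 to 4.76e-07). Over all genes, LPS with ISO raised 4.15% and lowered 3.27% at 1 h, 7.7% and 6.15% at 2 h, and 14.4% and 15.6% at 4 h. LPS with PGE2 raised 4.7% and lowered 2.99% at 1 h, 7.49% and 5.77% at 2 h, and 15.2% and 16.5% at 4 h. The Zfp36 times differed in both (limma F test, adjusted p = 8.84e-07 with ISO and 4.01e-07 with PGE2, against 17.6% and 17.8% of all genes). Zfp36l1 gave 0.88, 0.23 and 1.05 at 1 h, 1.32, 1.57 and 1.84 at 2 h, and 1.02, 1.29 and 0.95 at 4 h in LPS with ISO. In LPS with PGE2 it gave 1.05, 0.31 and 1.12 at 1 h, 1.41, 1.63 and 1.83 at 2 h, and 1.02, 1.31 and 0.92 at 4 h. The 2 h sets again lay above the 4 h sets. Zfp36l1 means were 0.72, 1.58 and 1.09 with ISO and 0.83, 1.62 and 1.09 with PGE2, all past the threshold, although the 1 h value with ISO did not pass without set 3 (limma, adjusted p = 0.0862). Its times differed too (limma F test, adjusted p = 0.0106 and 0.0171), but not without set 2 at 1 h (0.0765 and 0.0783) or without set 3 at 2 h (0.0767 and 0.104). Zfp36l2 lay between −1.20 and 0.19 in the 9 sets of LPS with ISO and between −1.12 and 0.14 in those of LPS with PGE2, with set 2 the lowest at 4 h in both, as with LPS alone. It did not pass in any combination (limma, lowest adjusted p = 0.143). With the set number within each time as a replicate block it passed in LPS with PGE2 at 1 h (−0.54, limma, adjusted p = 0.0423) and in LPS with ISO at 4 h (−0.52, limma, adjusted p = 0.0248).

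The difference between a combination and LPS alone did not pass the test for any member at any time. For Zfp36 with ISO the difference was −0.38 at 1 h (95% interval −0.87 to 0.12; limma, adjusted p = 0.92), −0.20 at 2 h (−0.70 to 0.29) and 0.05 at 4 h (−0.44 to 0.55). With PGE2 it was −0.34 (−0.83 to 0.16), −0.34 (−0.83 to 0.15) and −0.12 (−0.61 to 0.38). The Zfp36l1 intervals lay within −0.61 and 0.38, and those of Zfp36l2 reached from −1.35 to 1.26. Over all genes 0.019%, 0% and 0.0951% differed from LPS at 1, 2 and 4 h with ISO, and 0%, 0% and 0.0285% with PGE2. The 0% comparisons had 308 genes with ISO at 2 h, and 484 and 242 with PGE2 at 1 and 2 h, at an unadjusted limma p below 0.05. With the set number within each time as a replicate block, 6, 16 and 53 genes passed with ISO in place of 2, 0 and 10, and 3, 3 and 50 with PGE2 in place of 0, 0 and 3, with no member among them (limma, lowest adjusted p = 0.389). By set number, Zfp36 was lower with PGE2 than with LPS alone in 3 of 3 sets at 2 h and at 4 h. Zfp36l1 was lower in 3 of 3 at 2 h with either ligand, and Zfp36l2 in 3 of 3 at 1 h with either ligand. For Zfp36l2 at 1 h, however, set 1 of LPS alone was listed at 0 on both arrays. Set 1 of LPS with ISO was listed at 0 on its Cy3 array, so set 1 gives no direction there either. At later times Zfp36l2 was lower in 0 of 3 sets with ISO at 2 h (difference 0.09) and with PGE2 at 4 h (0.51). In both, set 1 of the combination was listed at 0 on both arrays, and set 1 of LPS alone on 1 array. Set 1 therefore gives no direction there. Both combinations are set against the same LPS sets, and lipid binding protein is named for LPS alone.

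**Figure D3:**
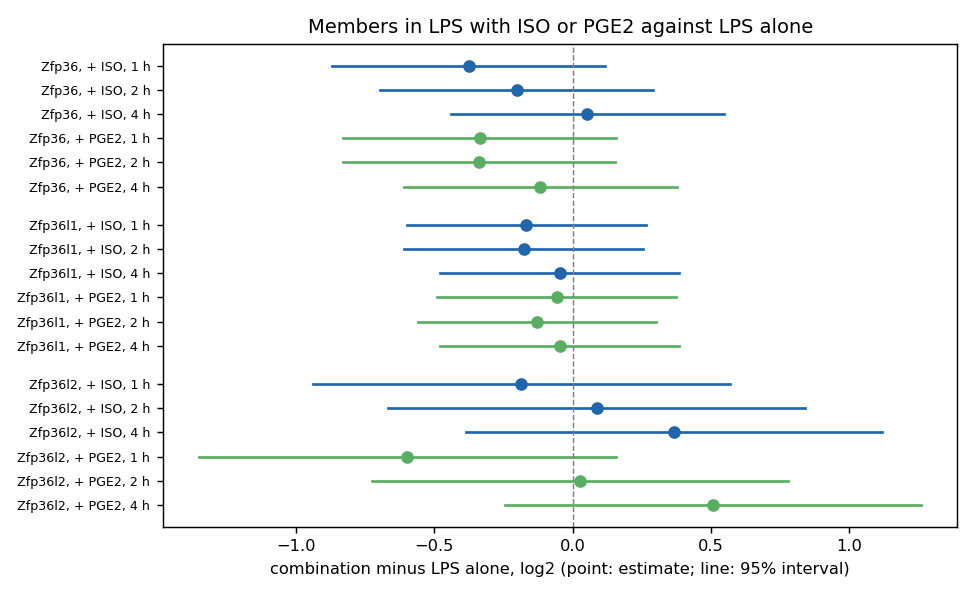
Difference of each member between LPS with ISO or PGE2 and LPS alone (x axis, log2; points are estimates and lines 95% intervals), by member, added ligand and time (y axis). All 18 intervals include 0.

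The sum of the single log2 responses, which is a product of fold changes, was compared with the combination. Lipid binding protein is named for LPS alone and not for the combinations, which bears on this comparison too. For Zfp36 at 1 h the combination with ISO was 1.31 below the sum (95% interval −1.92 to −0.71), and −0.11 and 0.20 from it at 2 and 4 h. Over the 3 times the departure did not pass (limma F test, adjusted p = 0.302, against 0.0856% of all genes), and did with the set number within each time as a replicate block (adjusted p = 0.00351). With PGE2 the Zfp36 departure at 1 h was −0.75 (−1.40 to −0.10), and its F test did not pass (adjusted p = 1, against 0.00951%). Zfp36l1 departures lay between −0.20 and 0.01 and those of Zfp36l2 between −0.70 and 0.15, and none passed.

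Pooled over times, the 3 members separated within sets in LPS-treated cells, though Zfp36 and Zfp36l1 did not at 2 h. Over the 9 LPS sets, Zfp36 exceeded Zfp36l1 by 1.51 ± 1.27 (SD) and was higher in 7 (exact two-sided sign-flip permutation test, adjusted over 15 tests, p = 0.0391). The exceptions were 2 h sets, where Zfp36 read 1.40, 1.94 and 1.65 and Zfp36l1 1.64, 1.64 and 1.97. Zfp36 exceeded Zfp36l2 by 3.09 ± 1.15 in 9 of 9 (exact permutation test, adjusted p = 0.00977, the smallest raw p being 0.00391). Zfp36l1 exceeded Zfp36l2 by 1.59 ± 0.85 in 8 of 9 (exact permutation test, adjusted p = 0.0167). With ISO the order was different, since Zfp36l2 exceeded Zfp36l1 in 9 of 9 sets, by 0.53 ± 0.38 (exact permutation test, adjusted p = 0.00977), and the differences of Zfp36 from the other members did not pass (exact permutation tests, adjusted p = 0.415 and 0.293). Both Zfp36l2 arrays of ISO set 1 at 4 h were at 0. With zeros as missing this set drops out, and Zfp36l2 exceeded Zfp36l1 in 8 of 8 sets, by a mean of 0.61 (exact permutation test, adjusted p = 0.0293). In that setting a set with 1 listed 0 rests on 1 dye orientation, as ISO set 1 at 2 h does (Cy5, 0.39). The dye difference of Zfp36l2 does not cancel in such a set. With PGE2 none of the 3 differences passed (adjusted p = 0.762, 0.781 and 0.523). The same tests in LPS with ISO and LPS with PGE2 passed for all 3 pairs (exact permutation tests, adjusted p from 0.00977 to 0.0469). Zfp36 was above Zfp36l1 in 8 of 9 sets with ISO and 6 of 9 with PGE2, and the exceptions were again at 2 h. In the LPS-containing treatments the differences from Zfp36l2 also passed with zeros as missing, over 7 or 8 sets (exact permutation tests, adjusted p from 0.0293 to 0.0335). Sets at different times are pooled here, and the ratios compare changes, not abundances.

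The genes most like each member were sought over the 15 group means, among 7128 genes with values on at least 80 arrays. These correlations describe the profiles and carry no test, because many of the groups contain LPS. Whether groups of 1 time share medium RNA is not given. Nearest to Zfp36 were Egr1 (an early response transcription factor, r = 0.95), Ccnl1 (0.95), Rnf225 (0.94), Lce1a1 (0.94) and Mapk8ip2 (0.94). Egr1 sets were 5.95, 4.45 and 4.87 at 1 h of LPS, 1.91, 3.80 and 2.90 at 2 h, and 2.24, 3.37 and 4.59 at 4 h, so its 2 h and 4 h sets overlapped, unlike those of Zfp36. Its mean at 1 h of ISO was 1.39, whereas Lce1a1 and Mapk8ip2 had means of 0.125 and 0.155 at 4 h of LPS. Nearest to Zfp36l1 were Rab12 (0.99), Relb (an NF-kB subunit, 0.98), Gadd45b (0.98), Frmd6 (0.98) and Stx11 (0.98). Relb had means of 1.06, 1.56 and 1.04 and Gadd45b 1.71, 2.82 and 2.39 at the 3 times of LPS, both highest at 2 h. Nearest to Zfp36l2 were Lgmn (0.94), Cby2 (0.94), Stk11 (0.92), Tssc4 (0.91) and Stub1 (0.91), each lower at 4 h than at 1 or 2 h of LPS. Among the members, r was 0.62 for Zfp36 with Zfp36l1, −0.67 for Zfp36 with Zfp36l2 and −0.52 for Zfp36l1 with Zfp36l2.

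Most mRNAs listed as known TTP targets rose with LPS. The list was chosen with earlier results of these data known and holds many cytokine and chemokine genes. A rise with LPS was therefore likely beforehand and is no test of TTP action. Of 26 known target mRNAs 16 rose and none fell at 1 h, 18 rose and 1 fell at 2 h, and 18 rose and none fell at 4 h, so that 61.5%, 69.2% and 69.2% of the list rose against 4.64%, 8.88% and 14.3% of all genes. The list medians were 1.07, 1.74 and 1.79, where the median of all genes was 0, as it is in every deposited column. The one that fell at 2 h was Fos (−0.76 ± 0.13), named after its values were seen, as are Vegfa, Ccl3, Lsm3, Mapk14, Mapk11 and Map2k6 in what follows. Ccl2 and Ccl3 were listed at 0 in all 3 sets at 4 h. In LPS with ISO 16, 19 and 18 targets rose against 4.15%, 7.7% and 14.4% of all genes, and in LPS with PGE2 17, 19 and 18, against 4.7%, 7.49% and 15.2%. In each combination 1 target fell at 1 h, 1 at 2 h and none at 4 h. Of all genes 3.27%, 6.15% and 15.6% fell with LPS and ISO, and 2.99%, 5.77% and 16.5% with LPS and PGE2. Il1b (a pro-inflammatory cytokine) reached 5.22 ± 0.61 (SD, n = 3) at 4 h, 37.3-fold, Il6 4.64 ± 1.64, 24.9-fold, and Il1a 4.39 ± 1.37, 20.9-fold. Tnf had sets of 3.54, 3.66 and 3.70 at 1 h, 3.26, 3.50 and 3.90 at 2 h, and 2.84, 3.77 and 3.65 at 4 h, so its 2 h sets overlapped the 1 h and 4 h sets, unlike those of Zfp36. Il6 had values on 79 arrays and Il1a on 78. With ISO 3 of the targets rose at 1 h, namely Ier3 (an early response gene, 1.57 ± 0.23, 2.98-fold), Il1b (1.92 ± 0.68) and Vegfa (0.94 ± 0.029), and at 2 h the same 3 rose while the chemokine genes Ccl3 (−1.22 ± 0.35) and Ccl4 (−1.24 ± 0.083) fell. Of the list, 11.5% thus rose at each of these times with ISO, against 0.713% and 0.884% of all genes, and 7.69% fell at 2 h against 0.827%. With PGE2 Ier3 alone among the targets rose (3.85% of the list at 1 h and at 2 h, against 0.2% and 0.238% of all genes), 2.46-fold at 1 h and by 0.96 on the log2 scale at 2 h.

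Upstream of TTP, Dusp1, the phosphatase that switches off p38, was higher at 1 h of LPS alone than at 2 or 4 h. It averaged 3.66 ± 0.17 (SD, n = 3) at 1 h, 2.38 ± 0.87 at 2 h and 0.47 ± 0.55 at 4 h of LPS. At 1 h the mean was 3.84 ± 0.28 in LPS with ISO and 3.78 ± 0.26 in LPS with PGE2. With the single ligands at 1 h it was 1.71 ± 0.083 for ISO and 1.28 for PGE2 (2 sets). Dusp1 passed at 1 h of ISO (limma, adjusted p = 0.00334), but not at 1 h of PGE2 (0.261) or 4 h of LPS (0.341). Of 13 measured genes of the p38 pathway and its phosphatases, 1, 4 and 3 rose and 0, 0 and 2 fell at 1, 2 and 4 h of LPS. These are 7.69%, 30.8% and 23.1% rising, against 4.64%, 8.88% and 14.3% of all genes, and the 15.4% that fell at 4 h is near the 16.4% of all genes. Those that fell at 4 h were Mapk14, the p38 alpha kinase (−0.28), and Map2k6, a kinase that activates p38 (−0.51), while Mapk11, p38 beta, rose (0.27). Mapkapk2, which encodes the kinase MK2 that phosphorylates TTP, rose 2.28-fold at 4 h, and Ywhab, a 14-3-3 protein, 1.54-fold.

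Over the 4 lists of decay enzymes and other RNA-binding regulators (42 measured genes), 9.52% rose and 2.38% fell at 1 h of LPS, 14.3% and 2.38% at 2 h, and 19.0% and 7.14% at 4 h. Of all genes, 4.64% rose and 4.84% fell at 1 h, 8.88% and 7.01% at 2 h, and 14.3% and 16.4% at 4 h. Of 14 deadenylase-related genes 2, 2 and 2 rose and 0, 1 and 1 fell at 1, 2 and 4 h; Btg2, a deadenylase-binding antiproliferative gene, rose 17.3-fold at 1 h and Noct, a deadenylase-like rhythmic gene, 2.80-fold at 2 h. Btg2 also rose 2.76-fold with ISO at 1 h. Of 11 decapping and 5′ to 3′ decay genes 0, 2 and 3 rose and 1, 0 and 0 fell, the latter being Lsm3 (−0.23), with Dcp2, the decapping enzyme, 2.40-fold and Xrn1, the main cytoplasmic 5′ to 3′ exonuclease, 1.96-fold higher at 4 h. Of 7 exosome genes 1 rose at each time and 2 fell at 4 h, with Exosc10 1.20-fold higher at 1 h and Exosc5 (−0.26) and Exosc8 (−0.23) lower at 4 h. Of 10 other RNA-binding regulators 1, 1 and 2 rose and none fell, among them Elavl1 (HuR, 1.20-fold at 4 h), which stabilises AU-rich mRNAs.

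**Figure D4:**
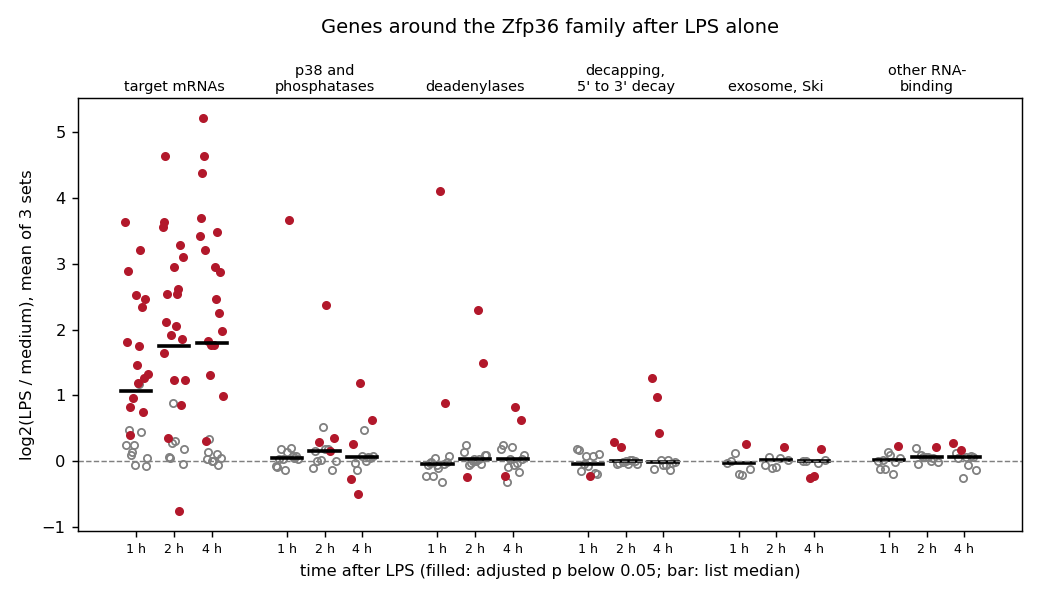
Mean log2 ratio of LPS over medium (y axis) for each measured gene of 6 lists at 1, 2 and 4 h (x axis); filled points have an adjusted p below 0.05 and bars are list medians. The target mRNAs have medians of 1.07, 1.74 and 1.79, while the medians of the other lists lie between −0.04 and 0.16.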

How the data were processed

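RNA of RAW 264.7 cells was compared on 88 2-colour arrays. The authors deposited a table of log2 ratios per probe and array (unit read from the values, since the largest absolute value is log2 of 100, 6.64, with 17 values at that limit); no source used here states the image analysis or normalization. Between 10.95 and 45.67% of an array's probes held an exact 0, with a median of 0 in all 88 columns, so the centring is unknown and zeros were kept as deposited. No intensities were in the table, so the precision of a ratio rests on the number of arrays.

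Groups, sets and dyes came from the labels. Signs were turned where treated RNA was in Cy3, the 2 arrays of a set were averaged, and probes with 1 gene symbol (13738 of 16281) were averaged to 10518 genes after updating symbols through a RefSeq table (GRCm38.p6, 13694 probes found). limma 3.58.1 (R 4.3.3) fitted 1 mean per group to 44 sets, with moderated tests and F tests, Benjamini-Hochberg over all genes at 0.05. On simulated data for LPS at 1 h (10518 genes) it recovered 100% of the 100 genes shifted by log2 1 and of the 100 shifted by 2, with 10 false calls. The simulated sets were independent, with the same SD for a gene in all groups. The simulation therefore does not cover sets that deviate together or spreads that differ between groups. Member differences used exact sign-flip permutation tests. Alternatives changed the treatment of zeros, the probe, the dye orientation, the centring, the filter, the groups fitted, the sets and a replicate block. The members, the 6 gene lists and the rules were chosen with earlier results of these data known. Sets of 1 number and time deviated together: 84 of 86 pairs had r above 0.1 over genes (median 0.36), including every pair in which both groups had LPS. LPS with ISO at 4 h had r of 0.03 in sets 1 and 2. Of 43 pairs at other times 13 had r above 0.1, so numbers pair samples within a time. The text names the members throughout, the 5 genes most like each, up to 3 passing genes per list and treatment with the largest change, and Tnf and Dusp1.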

Additional observations from a re-analysis of the deposited data

Results flagged for a closer look

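The responses of 2 members differed between 1, 2 and 4 h within a treatment, by limma F tests over all genes. For Zfp36 the adjusted p was 8.71e-07 with LPS, 0.0258 with ISO, 8.84e-07 with LPS and ISO, and 4.01e-07 with LPS and PGE2. For Zfp36l1 it was 0.0074 with LPS, 0.0106 with LPS and ISO, and 0.0171 with LPS and PGE2. In the LPS-containing groups Zfp36 was lowest and Zfp36l1 highest at 2 h.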

How the results depend on the processing

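Values here are adjusted p-values unless named as counts. Centring, the filter, robust eBayes and the planned replicate block of set number changed no member's call. Exact zeros as missing changed no call of Zfp36l2, the only member with zeros. The single-probe setting bears on no member, since each has 1 probe with values. Fitting only the groups compared left 2 or 3 sets per test against medium and 9 per test between times within the treatments named here, and 19 results no longer passed. Against medium, Zfp36 gave 0.276, 0.239 and 0.214 at 1 h with LPS, LPS with ISO and LPS with PGE2, 0.0568, 0.0629 and 0.0702 at 2 h, and 0.633 with ISO at 1 h. Zfp36l1 gave 0.468, 0.379 and 0.343 at 1 h in the same order, 0.082 and 0.0765 at 2 h and 0.0533 and 0.0505 at 4 h with the combinations, and Zfp36l2 0.327 at 4 h of LPS. Between times, Zfp36l1 gave 0.218, 0.154 and 0.164 with LPS and the combinations, and Zfp36 0.286 with ISO. With the set number within each time as a replicate block, chosen after seeing the data, Zfp36l2 passed in LPS with PGE2 at 1 h (0.0423), ISO at 2 h (0.0347), LPS with ISO at 4 h (0.0248) and between times of LPS (0.014), as did the Zfp36 departure with ISO (0.00351). Whether sets share medium RNA is not given; if so, this block removes its deviation. Arrays with treated RNA in Cy5 alone gave 0.046 for Zfp36l2 with ISO at 2 h and 0.16 with LPS at 4 h. Cy3 alone gave 0.0344 for Zfp36l2 in LPS with ISO at 4 h and 0.0689 for the Zfp36 times with ISO. Leaving out 1 set gave 0.00182 to 0.141 for Zfp36 with ISO at 1 h, 0.0129 to 0.249 for its times with ISO, 0.000219 to 0.0862 for Zfp36l1 in LPS with ISO at 1 h, and 0.00134 to 0.361 for Zfp36l2 with LPS at 4 h. For times it gave 0.00048 to 0.0612 for Zfp36l1 with LPS, 0.00547 to 0.0767 with LPS and ISO, 0.0109 to 0.104 with LPS and PGE2, and 0.0347 to 0.749 for Zfp36l2 with LPS. The causes were not tested. Of 81 list genes, the within-time replicate block passed 34 against 22 with LPS at 1 h, 11, 9 and 5 against 5, 5 and 2 with ISO at 1, 2 and 4 h, and 12, 4 and 4 against 1, 1 and 0 with PGE2. The planned block passed 3 with PGE2 at 1 h and 1 at 4 h. Zeros as missing passed 2 with PGE2 at 2 h and 1 with ISO at 4 h. Depth is unknown, and signal over background cannot be judged without intensities.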
